A study of Homo sapiens with 42 samples.

Results

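The 49 genes described here belong to the interferon response. They comprise interferon-stimulated genes (ISGs), transcription factors and nucleic acid sensors of the same pathway, and the 3 chemokines that bind the receptor CXCR3. The genes were taken by symbol, with no measured value in the rule, and all 49 were found among the 28266 rows of a table of raw RNA-sequencing counts. The table covers 42 libraries of human lung fibroblasts in 12 groups. IMR90 is an established fetal lung fibroblast strain, and IMR90 ER:RAS cells carry an oestrogen receptor fusion of oncogenic RAS that 4-hydroxytamoxifen (4OHT) activates.

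The 18 ER:RAS libraries form 6 groups of 3, treated with DMSO or with 100 nM 4OHT to bring about oncogene-induced senescence (OIS). The 24 IMR90 libraries form 6 groups of 4, treated with DMSO or for 24 h with bleomycin at 50 µg/ml, a DNA-damaging drug that brings about senescence. Each treatment was combined with a control shRNA, COPB2 shRNA 1 or COPB2 shRNA 2, and COPB2 encodes a subunit of the coat of COPI transport vesicles. After 7 days of culture, doxycycline at 1 µg/ml induced the shRNA in every group, and RNA was collected 72 h later, at day 10. The labels give the genotype of all cells as wild type. No ER:RAS library received bleomycin and no IMR90 library received 4OHT, so the cell line and the trigger of senescence cannot be told apart. For the COPB2 shRNAs in senescent cells, the study describes its replicates as independent experiments. It gives fewer replicates after bleomycin than there are libraries here, and the sample labels give only replicate numbers. The p-values measure the spread between these libraries. In RNA of whole cultures, fewer expressing cells and less RNA per cell cannot be told apart.

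As background, interferons are secreted proteins that bind receptors on the same or neighbouring cells and activate JAK kinases. In the type I response, STAT2 and IRF9 join a further STAT protein in the complex ISGF3, which binds the interferon-stimulated response element (ISRE) in the promoters of ISGs. The products of these genes sense foreign nucleic acid, block viral entry and replication, or call immune cells. Many ISGs are transcribed at a low level without infection, and the pathway has been studied in senescent fibroblasts, in which DNA in the cytosol can activate it.

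In both senescence models most of the members that changed were lower than in DMSO-treated cells. With the control shRNA, 24 of the 46 members tested fell in OIS and 4 rose, where 20.2% of all 14297 genes tested fell and 15.5% rose. After bleomycin 21 of 46 members fell and 4 rose, against 15.8% and 15.4% of 14783 genes. Among members with more than 10 counts in all in the OIS libraries, the largest decreases in OIS were in IFIT1, GBP2, IFIT2 and IFITM1, which block viral RNA, intracellular pathogens or viral entry. The chemokines CXCL10 and CXCL11 rose in both models. CXCL11 had at most 3 counts in all in the DMSO groups compared, and after bleomycin it was not called without replicate 4. No member was called for either COPB2 shRNA against the control shRNA in the fit without replicate numbers. In a fit with the replicate number, IFITM1 in OIS and GBP1 after bleomycin were called lower with COPB2 shRNA 2. A gene was called at an edgeR adjusted p under 0.05, adjusted over all genes tested.

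Expression is given as CPM, the counts of a gene scaled to a common library size, adjusted by TMM over all 42 libraries. Total counts ran from 13148194 to 23597310, and 3 counts, taken as the floor, correspond to 0.110 to 0.271 CPM. Replicates of a group differed by more than sampling noise in every pair, the smallest chi-square per degree of freedom being 7.15. ESR1 counts, which include the fusion, ran from 21136 to 39952 in ER:RAS libraries and from 0 to 11 in IMR90 libraries. COPB2 lay between 267 and 620 CPM in 14 control shRNA libraries and between 33.9 and 122 CPM in the 28 libraries with a COPB2 shRNA. The 9 fibroblast markers summed to between 8164 and 27797 CPM. Of these 9, 7 fell and VIM rose in OIS, with a median log2 fold change of −1.52 (DCN −7.32, COL3A1 −4.79), and 7 fell after bleomycin, with a median of −1.17, changes as large as those of the members given below. The 13 markers of immune, epithelial and endothelial cells summed to 2.32 to 6.08 CPM in DMSO-treated ER:RAS cells, 9.70 to 15 CPM in OIS, 3.66 to 5.69 CPM in IMR90 cells with DMSO and 5.43 to 7.97 CPM after bleomycin. Of these 13 markers, MS4A1, LILRA4 and CLEC4C never exceeded 3 counts, and 3 (VWF, CDH5, PECAM1) rose in OIS. After bleomycin PTPRC, CDH1 and PECAM1 rose and VWF fell. The part of these marker changes in the results below was not tested.

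Bleomycin replicate 4 stood apart from the other bleomycin libraries with each of the 3 shRNAs. The sum of 12 cytokines that NF-kB is known to induce was 3085, 18429 and 9147 CPM in these libraries (control shRNA, COPB2 shRNA 1, COPB2 shRNA 2), and between 74.1 and 425 CPM in the other 9 bleomycin libraries. The counts of members called after bleomycin are given below with and without it.

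The promoter sequences show where the response element lies in genes that moved in opposite directions. The core of the ISRE, which is GAAA, any 2 bases and GAAA again, was searched on both strands in the 250 bases before each transcription start, in RefSeq promoters on GRCh38.p14. Of the 40 members matched by symbol, 24 (60%) held it, against 662 of 18292 genes (3.62%). The 9 members without an entry were IRF7, DHX58, OAS2, OASL, IFIT2, IFITM2, MX2, USP18 and GBP2. Each sequence reads 5′ to 3′ on the strand of the gene, with the pattern in capitals, in the reverse orientation in IFIT1. The first 3 genes fell in OIS and the last pair rose.
IFIT1, chr10:89392492-89392544, plus strand: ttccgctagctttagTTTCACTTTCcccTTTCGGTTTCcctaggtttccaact
IFITM1, chr11:313985-314024, plus strand: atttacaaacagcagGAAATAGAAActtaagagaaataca
IFI44L, chr1:78620269-78620399, plus strand: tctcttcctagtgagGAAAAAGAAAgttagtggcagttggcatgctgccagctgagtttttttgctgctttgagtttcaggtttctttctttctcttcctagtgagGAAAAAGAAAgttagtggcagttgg
ISG20, chr15:88638932-88638971, plus strand: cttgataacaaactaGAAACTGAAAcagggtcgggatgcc
CXCL10, chr4:76023694-76023733, minus strand: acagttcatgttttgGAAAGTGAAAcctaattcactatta

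IFIT1 and IFI44L each hold the pattern at 2 places, and the other 3 at 1 place. Among tested members with a promoter entry, it was present in 11 of 18 that fell in OIS, in 2 of 4 that rose and in 9 of 16 that were not called. After bleomycin it was present in 10 of 15 that fell, 2 of 3 that rose and 10 of 19 not called. The NF-kB consensus, searched the same way, was present in 9 of 40 members (22.5%) and in 13.4% of genes. Overlaps between matches of the 2 patterns were not removed. It was present in 2 of 4 members that rose in OIS (CXCL10 and CXCL11), 5 of 18 that fell and 2 of 16 not called, and after bleomycin in 2 of 3 that rose, 5 of 15 that fell and 2 of 19 not called. A match describes letters in this window and was not tested for binding.

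Among the transcription factors, STAT2 and IRF9, both subunits of ISGF3, fell in OIS. STAT2 was at 215, 309 and 137 CPM in the DMSO libraries and at 89.7, 86.0 and 87.4 CPM in the OIS libraries. The groups did not overlap, and the log2 fold change was −1.41 (SE 0.23, edgeR adjusted p = 0.000222). IRF9 fell by 1.5 on the log2 scale (SE 0.30, edgeR adjusted p = 0.00102). IRF7, which drives the later wave of interferon genes, was at 15.3, 22 and 10.2 CPM with DMSO and 13, 6.08 and 6.84 CPM in OIS, groups that overlapped (log2 fold change −0.97, edgeR adjusted p = 0.0516). IRF1, an activator that NF-kB and interferon-gamma also induce, had a log2 fold change of 0.55 in OIS and −0.35 after bleomycin, and passed the test in neither. After bleomycin STAT2 fell by 1.10 on the log2 scale (edgeR adjusted p = 3.85e-05) and IRF7 by 0.91 (edgeR adjusted p = 0.00861), whereas IRF9 did not pass the test (−0.50, edgeR adjusted p = 0.104).

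Of the 9 nucleic acid sensors, 8 were tested in ER:RAS cells, where 4 fell and none rose. TLR3, the endosomal receptor of double-stranded RNA, gave 108 counts in the 3 DMSO libraries, at 2.39, 0.443 and 2.60 CPM, and 1 count in the 3 OIS libraries. The ratio of these counts per sequenced read was 80.7-fold lower in OIS, with an exact 95% counting interval of 14.2 to 3217. This interval covers counting error only, not the spread between libraries. In IMR90 cells TLR3 was at 1.5, 2.39, 3.38 and 2.90 CPM with DMSO and 2.59, 2.06, 5.35 and 4.20 CPM after bleomycin, ranges that overlapped, and its log2 fold change was 0.44 (edgeR adjusted p = 0.449).

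The 2′,5′-oligoadenylate synthetases make the second messenger that activates RNase L. OAS1 was at 1.53, 3.10 and 0.481 CPM with DMSO and at 0.0903, 0.198 and 0 CPM in OIS, with at most 3 counts in an OIS library (log2 fold change −4.11, SE 0.89, edgeR adjusted p = 0.00193). OAS3 fell from 13.7, 25.4 and 9.19 CPM to 3.34, 1.72 and 2.85 CPM (−2.69, edgeR adjusted p = 5.51e-05). DHX58, a regulator of the cytosolic RNA helicases, fell by 2.06 on the log2 scale in OIS. After bleomycin OAS3 fell by 1.29, DHX58 by 1.07 and IFIH1, a helicase that detects long double-stranded RNA, by 1.07, and OAS1 did not pass the test (−0.54, edgeR adjusted p = 0.521).

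IFI16, a sensor of DNA, stood at 119, 222, 211 and 229 CPM in IMR90 cells with DMSO and at 67.8, 45.8, 94.9 and 75.6 CPM after bleomycin. All bleomycin libraries lay below all DMSO libraries, and the log2 fold change was −1.5 (SE 0.26, edgeR adjusted p = 0.000146). In OIS its change was −1.01 (edgeR adjusted p = 0.123), with overlapping groups. OASL, which binds RNA but makes no oligoadenylate, had at most 5 counts per library with DMSO and at most 11 after bleomycin, where it rose (log2 fold change 2.28, SE 0.77, edgeR adjusted p = 0.0276). It was not tested in ER:RAS cells. The calls of OASL and IFIH1 after bleomycin were lost when some single libraries were left out. EIF2AK2, the kinase that stops translation on sensing double-stranded RNA, passed the test in neither model (0.36 and −0.25).

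**Figure D1:**
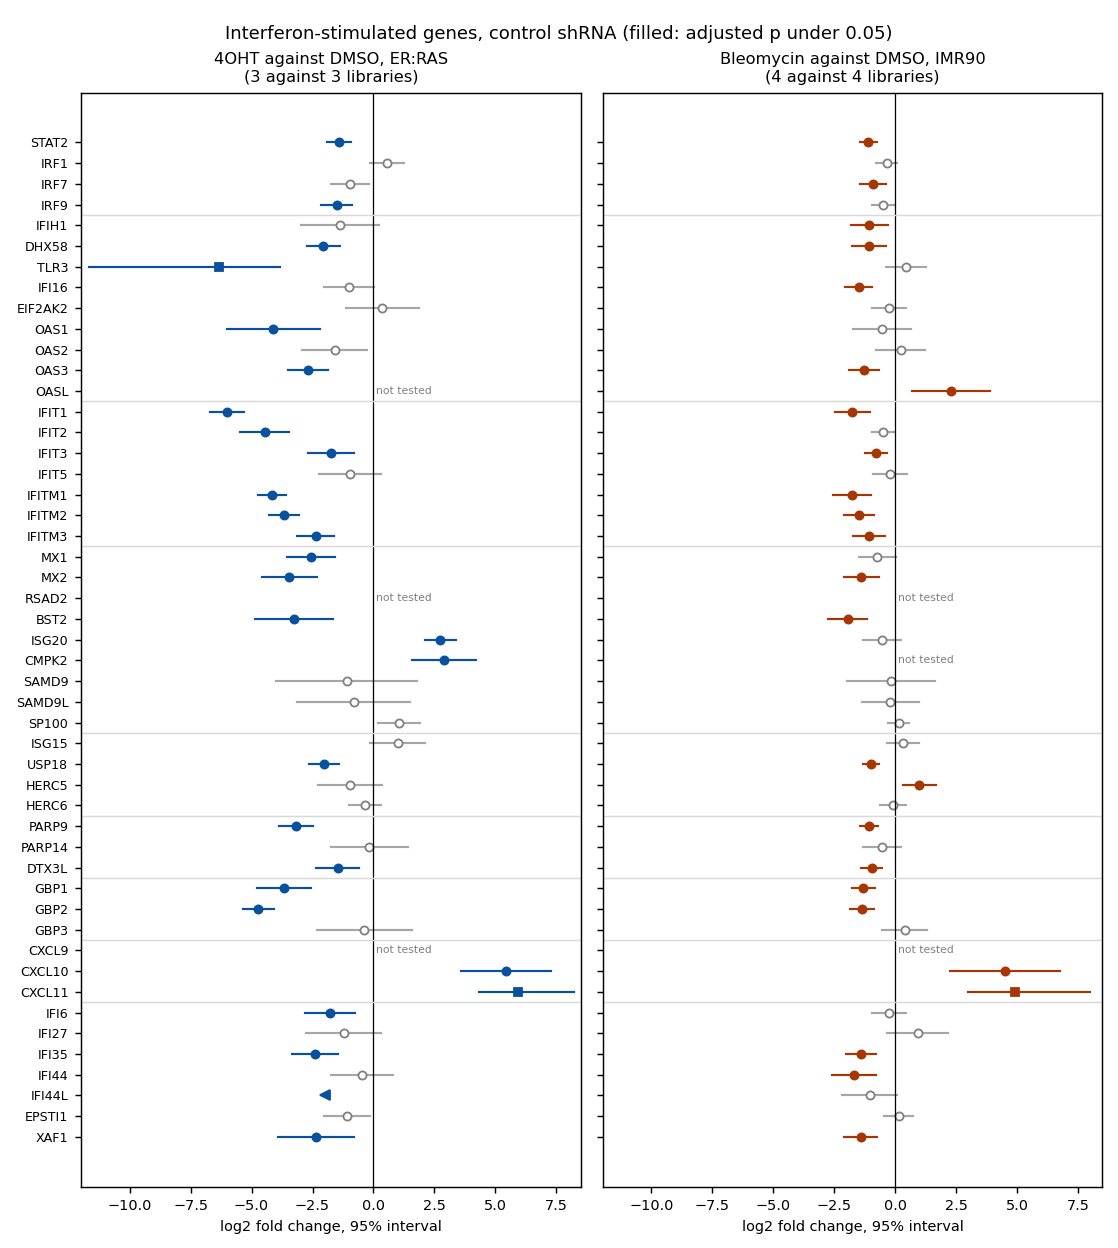
Log2 fold change of each member with the control shRNA, in OIS (left, 3 against 3 libraries) and after bleomycin (right, 4 against 4 libraries), grouped by role, with 95% intervals. Filled circles passed an edgeR adjusted p under 0.05. Squares are ratios of counts for groups with 1 to 3 counts in total, with exact intervals that cover counting error only. The triangle is the bound for IFI44L, which had no count in OIS. Most filled symbols lie left of 0, with CXCL10 and CXCL11 right of 0 in both panels.

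The IFIT proteins bind viral RNA, and the IFITM proteins sit in membranes and hinder viral entry. In these families 6 of 7 members fell in OIS and 5 of 7 after bleomycin. IFIT1 was at 24.0, 30.6 and 20.8 CPM with DMSO and at 0.451, 0.330 and 0.443 CPM in OIS. No OIS library had more than 7 counts, and the log2 fold change was −6.01 (SE 0.33, edgeR adjusted p = 4.26e-09). In IMR90 cells it was at 30.7, 36.3, 34.1 and 39.1 CPM with DMSO and at 5.27, 11.1, 8.63 and 17.6 CPM after bleomycin (−1.75, SE 0.34, edgeR adjusted p = 0.000439). Both differences exceeded the spread of their replicates, the decrease in OIS being larger in the test of models given below.

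IFIT2, a partner of IFIT1, stood at 9.73, 5.96 and 13.6 CPM with DMSO and at 0.451, 0.661 and 0.317 CPM in OIS (log2 fold change −4.45, SE 0.47, edgeR adjusted p = 3.12e-06). After bleomycin it was at 10.1, 7.63, 15 and 10.2 CPM against 8.79, 15.7, 17.7 and 17.2 CPM with DMSO, and the overlapping groups did not pass the test (−0.51, edgeR adjusted p = 0.0830). IFIT3 fell in both models, by 1.74 and 0.79 on the log2 scale. IFIT5 passed in neither (−0.97 and −0.22).

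IFITM3 had the highest level of all members per kilobase of transcript, at 2219 CPM per kb in DMSO-treated ER:RAS cells, 462 in OIS, 1507 in IMR90 cells with DMSO and 734 after bleomycin. Its libraries held 1184, 1822 and 1062 CPM with DMSO and 409, 278 and 160.2 CPM in OIS (log2 fold change −2.37, SE 0.35, edgeR adjusted p = 8.18e-05). IFITM1 went from 371, 601 and 313 CPM to 28.8, 25.5 and 21.7 CPM (−4.17, SE 0.27, edgeR adjusted p = 1.77e-08). IFITM2 went from 393, 623 and 332 CPM to 44.9, 37.8 and 30.2 CPM (−3.67, SE 0.29, edgeR adjusted p = 1.49e-07). In all 3 paralogues the highest OIS library lay below the lowest DMSO library.

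After bleomycin IFITM1 was at 66.7, 118, 54.5 and 113 CPM, against 424, 262, 145 and 339.7 CPM with DMSO (log2 fold change −1.76, SE 0.38, edgeR adjusted p = 0.00111). IFITM2 was at 106, 156, 87.0 and 97.8 CPM, against 454, 262, 191 and 322 CPM (−1.49, SE 0.30, edgeR adjusted p = 0.000600). IFITM3 overlapped between the groups and fell by 1.06 (edgeR adjusted p = 0.0146). The 3 IFITM genes are near-identical in sequence and IFITM1 and IFITM2 share a readthrough transcript in the annotation, so reads may be divided between them or lost, and their separate values are uncertain.

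Among the other antiviral effectors 2 rose and 3 fell of 8 tested in OIS. ISG20, an exonuclease of single-stranded RNA, was at 3.46, 6.27 and 4.57 CPM with DMSO and at 43.5, 30.1 and 28.4 CPM in OIS (log2 fold change 2.74, SE 0.30, edgeR adjusted p = 4.31e-06). All OIS libraries lay above all DMSO libraries. In IMR90 cells ISG20 was at 3.77, 3.12, 3.33 and 3.95 CPM with DMSO and at 2.54, 2.47, 1.5 and 3.32 CPM after bleomycin, which did not pass the test (−0.55, edgeR adjusted p = 0.298). CMPK2, a mitochondrial nucleotide kinase, rose in OIS from 0.459, 0.127 and 0.289 CPM to 2.08, 1.19 and 3.93 CPM (2.90, SE 0.62, edgeR adjusted p = 0.00170). It was not tested in IMR90 cells, where it had at most 10 counts with the control shRNA. CMPK2 and RSAD2 overlap on opposite strands. The study's methods name a directional library kit. Whether the counting used strand is not given for these counts, so reads of both genes may mix. RSAD2, the antiviral enzyme viperin, had at most 12 counts in a library and was tested in neither line.

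BST2, or tetherin, holds budding viruses at the cell surface. It stood at 4.19, 4.68, 4.40 and 3.00 CPM in IMR90 cells with DMSO and at 0.623, 1.66, 0.690 and 1.35 CPM after bleomycin, the most negative fold change of a member in that model (log2 fold change −1.94, SE 0.39, edgeR adjusted p = 0.000509). In OIS it fell from 4.18, 6.84 and 2.74 CPM to 1.08, 0.264 and 0.253 CPM (−3.25, SE 0.75, edgeR adjusted p = 0.00302). MX2, a GTPase that blocks nuclear entry of viruses, fell by 3.45 in OIS and 1.39 after bleomycin, and its relative MX1 fell by 2.57 in OIS and did not pass the test after bleomycin (−0.73, edgeR adjusted p = 0.133). SAMD9 and SAMD9L, which restrict poxviruses, and SP100, a nuclear body protein, passed the test in neither model. SP100 was at 71.9, 46.1 and 94.9 CPM with DMSO and 102, 166 and 205 CPM in OIS, groups that did not overlap (1.05, edgeR adjusted p = 0.0520).

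ISG15 is a ubiquitin-like protein that HERC5 attaches to targets and USP18 removes. ISG15 was at 53.1, 78.7 and 57.0 CPM with DMSO and at 272, 88.0 and 47.8 CPM in OIS, where replicate 1 stood far above the others and the lowest library lay below all DMSO libraries (log2 fold change 0.99, SE 0.53, edgeR adjusted p = 0.172). USP18, which also dampens signalling at the interferon receptor, fell by 2.02 in OIS (SE 0.29, edgeR adjusted p = 5.93e-05) and 0.99 after bleomycin (SE 0.16, edgeR adjusted p = 6.21e-05). HERC5 was at 0.957, 0.917, 0.734 and 0.527 CPM with DMSO and 1.48, 1.15, 1.78 and 1.92 CPM after bleomycin (0.98, SE 0.33, edgeR adjusted p = 0.0253), a call that was lost without bleomycin replicate 3 or 4 or DMSO replicate 3 or 4. HERC6 passed in neither model (−0.34 and −0.10).

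PARP9 and DTX3L form a complex that modifies proteins with ADP-ribose and ubiquitin. PARP9 fell from 32.3, 28.8 and 31.9 CPM to 2.08, 3.97 and 4.75 CPM in OIS (log2 fold change −3.18, SE 0.32, edgeR adjusted p = 1.99e-06) and by 1.09 after bleomycin. DTX3L fell by 1.47 and 0.96. Both genes start at a shared promoter on opposite strands and overlap in the annotation, so their reads may mix. PARP14, a mono-ADP-ribosyltransferase, passed in neither model (−0.17 and −0.56).

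Of the guanylate-binding proteins, GTPases that attack pathogens in vacuoles, GBP1 and GBP2 fell in both models and GBP3 in neither. GBP2 was at 46.4, 53.9 and 56.9 CPM with DMSO and at 3.25, 1.72 and 1.52 CPM in OIS (log2 fold change −4.72, SE 0.31, edgeR adjusted p = 1.76e-08). In IMR90 cells it went from 53.6, 54.2, 57.1 and 62.3 CPM to 15.5, 32.3, 17.3 and 24.7 CPM after bleomycin (−1.37, SE 0.24, edgeR adjusted p = 0.000133). The lowest DMSO library thus lay above the highest senescent library in both lines. GBP1 fell by 3.65 in OIS and 1.30 after bleomycin, and GBP3 had changes of −0.38 and 0.39.

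CXCL10 recruits T cells and natural killer cells through CXCR3, as do CXCL9 and CXCL11. CXCL10 was at 1.22, 0.127 and 1.44 CPM in ER:RAS cells with DMSO and at 21, 50.5 and 60.8 CPM in OIS (log2 fold change 5.43, SE 0.86, edgeR adjusted p = 0.000152). In IMR90 cells it went from 0.179, 0.229, 0.587 and 0.263 CPM to 3.21, 1.49, 2.30 and 23.3 CPM (4.52, SE 1.08, edgeR adjusted p = 0.00280). All 4 bleomycin libraries lay above the DMSO libraries, with replicate 4 far above the rest. Without that replicate the log2 fold change was 2.85 (edgeR adjusted p = 0.0290).

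CXCL11 had 3 counts in all in the 3 ER:RAS DMSO libraries and 135 in the OIS libraries, at 0.722, 3.50 and 4.69 CPM, a ratio 60.2-fold higher with an exact counting interval of 20.2 to 296. After bleomycin it had 58 counts against 2, a ratio of 30.1 (7.98 to 255), with 2.18 CPM in replicate 4 and 0.115 to 0.431 CPM in the others. Both intervals cover counting error only, not the spread between libraries. CXCL11 was called after bleomycin (edgeR adjusted p = 0.0136) but not without replicate 4 (edgeR adjusted p = 0.104). CXCL9 never exceeded 5 counts and was tested in neither line. CXCL10 and CXCL11 lie within the span of ART3 on the other strand.

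The rest of the members are ISGs of less settled or diverse roles. IFI44L, a cytosolic protein, had 1.325, 0.570 and 0.722 CPM with DMSO and no count in the 3 OIS libraries, at least 3.97-fold lower against a floor of 3 counts per library (edgeR adjusted p = 0.000492). IFI44, its neighbour and relative, was at 2.21, 5.96, 6.90 and 5.74 CPM in IMR90 cells with DMSO and at 0.479, 0.918, 1.90 and 3.37 CPM after bleomycin, groups that overlapped through the lowest DMSO library (−1.69, SE 0.44, edgeR adjusted p = 0.00568). IFI6 and IFI35 fell by 1.78 and 2.40 in OIS, IFI35 by 1.39 after bleomycin, and XAF1, a promoter of apoptosis, by 2.36 and 1.41. EPSTI1 and IFI27 passed in neither model with the control shRNA.

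**Figure D2:**
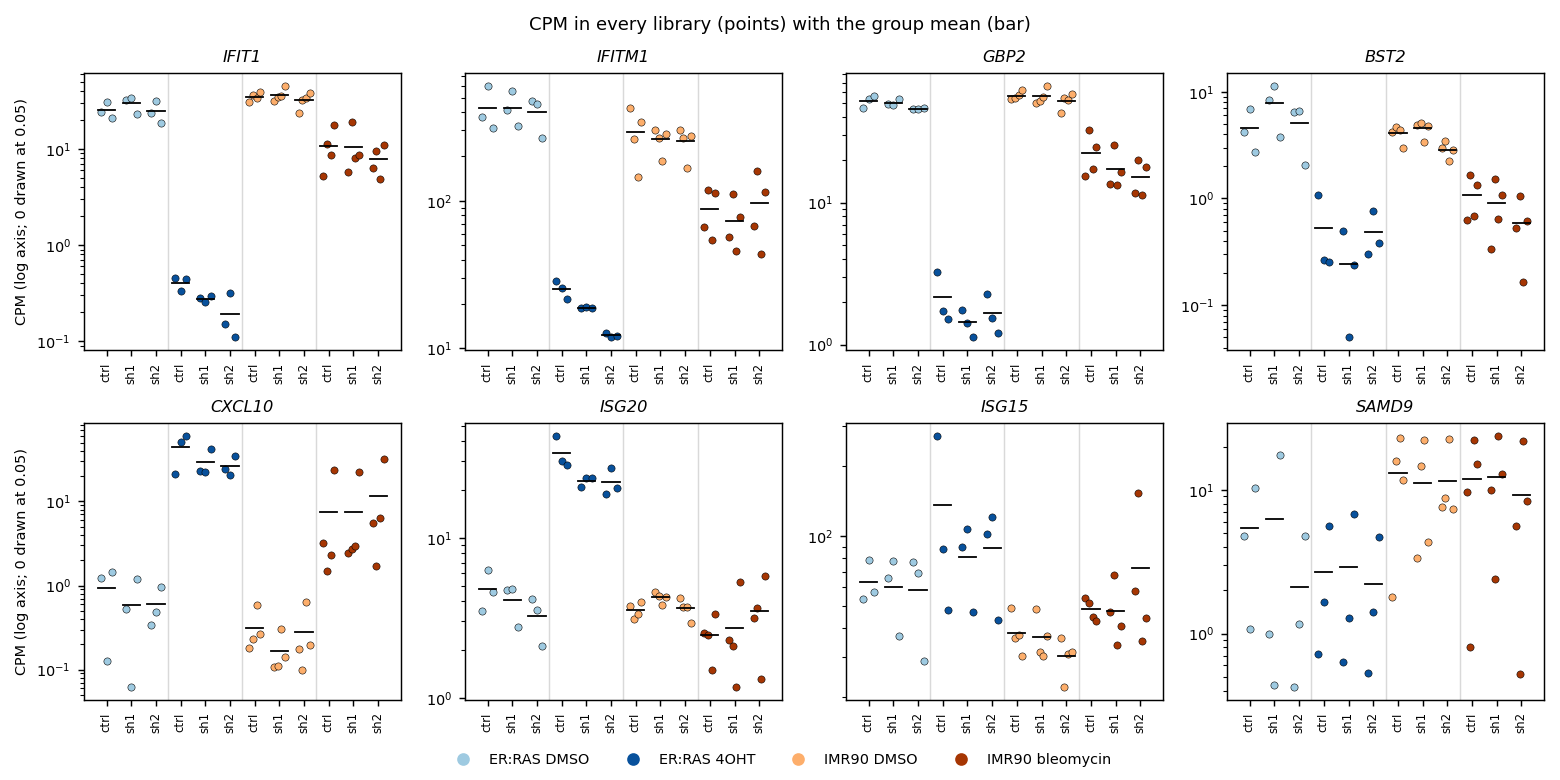
CPM of 8 members in each of the 42 libraries (points, log axis, 0 drawn at 0.05) with the group mean (bar), by treatment and by shRNA (ctrl, control; sh1 and sh2, COPB2 shRNAs 1 and 2). IFIT1 in OIS lies at 0.110 to 0.451 CPM against 18.6 to 33.9 CPM with DMSO whichever shRNA was induced, whereas SAMD9 spreads as widely within groups as between them.

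The members were also counted by overlap of the libraries, with no fit. In OIS 25 members had all 3 libraries below the DMSO libraries and 5 had all above, where 20.6% and 18% of all genes did so. After bleomycin 17 lay wholly below and 4 wholly above, against 13.9% and 14.1%. The median log2 fold change of the 46 members was −1.48 in OIS and −0.64 after bleomycin, beside −0.08 and −0.01 over all genes tested. A filter on low counts bears on some of these calls. In OIS 7 of the 46 (TLR3, OAS1, IFIT1, MX2, CMPK2, CXCL11 and IFI44L) reached the level of the filter, 0.551 CPM, in only one of the groups compared, and of the other 39 members 19 fell and 2 rose. After bleomycin CXCL11 alone was of this kind, and of the other 45 members 21 fell and 3 rose.

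The same comparison of senescent and DMSO-treated cells was made within each COPB2 shRNA, with other libraries in both groups. In OIS 26 members fell and 4 rose with COPB2 shRNA 1 (background 21.5% and 15.4%), and 26 fell and 5 rose with COPB2 shRNA 2 (22% and 14.9%). After bleomycin 22 fell and 4 rose with COPB2 shRNA 1 (17.8% and 17.4%), and 22 fell and 6 rose with COPB2 shRNA 2 (18.3% and 21.7%). The members' median log2 fold changes were −1.78, −1.81, −0.64 and −0.67 in this order. Members that reached the filter level in only one of the groups compared numbered 8 and 11 in OIS, IFIT1 among them, and without them 19 of 38 fell and 3 rose with COPB2 shRNA 1, and 17 of 35 fell and 4 rose with COPB2 shRNA 2. After bleomycin they numbered 3 and 1, and without them 22 of 43 fell and 1 rose, and 22 of 45 fell and 5 rose. IFIT1 in OIS was at 0.281, 0.258 and 0.296 CPM with COPB2 shRNA 1 and 0.153, 0.319 and 0.110 CPM with COPB2 shRNA 2, and its log2 fold changes were −6.77 and −7.00 (SE 0.35 and 0.36).

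The 24 members that fell in OIS with the control shRNA fell with each COPB2 shRNA too, and so did the 4 that rose. After bleomycin 18 members fell and 4 (OASL, HERC5, CXCL10 and CXCL11) rose with all 3 shRNAs. No member was called in opposite directions within a model, and in each model 15 members were called with none of the 3 shRNAs. In all 6 comparisons 15 members fell (STAT2, DHX58, OAS3, IFIT1, IFIT3, IFITM1, IFITM2, MX2, BST2, USP18, PARP9, DTX3L, GBP1, GBP2 and IFI35), and CXCL10 and CXCL11 rose. The shares of all genes called with all 3 shRNAs or in all 6 comparisons are not given here. Whether these shared counts exceed those of genes at large was therefore not tested. Of the calls with a COPB2 shRNA alone, ISG15 rose after bleomycin with COPB2 shRNA 2 (log2 fold change 1.21, edgeR adjusted p = 0.00545), with 57.6, 153, 35 and 44.1 CPM against 36.3, 22.2, 30.8 and 31.6 CPM with DMSO, so that the groups overlapped. SP100 passed the test in OIS with COPB2 shRNA 2 (1.18, edgeR adjusted p = 0.0308).

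Without bleomycin replicate 4, 22 members fell and 2 rose with the control shRNA, 22 fell and 2 rose with COPB2 shRNA 1, and 21 fell and 5 rose with COPB2 shRNA 2. CXCL10 stayed past the threshold with all 3, at log2 fold changes of 2.85, 3.96 and 3.94. CXCL11 did not, with edgeR adjusted p of 0.104, 0.0959 and 0.0651. HERC5 lost its call with the control shRNA and OASL with COPB2 shRNA 1. CXCL10 in replicate 4 was at 23.3, 22.2 and 32.2 CPM with the control shRNA, COPB2 shRNA 1 and COPB2 shRNA 2, and at 1.49 to 6.38 CPM in the other 9 bleomycin libraries.

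**Figure D3:**
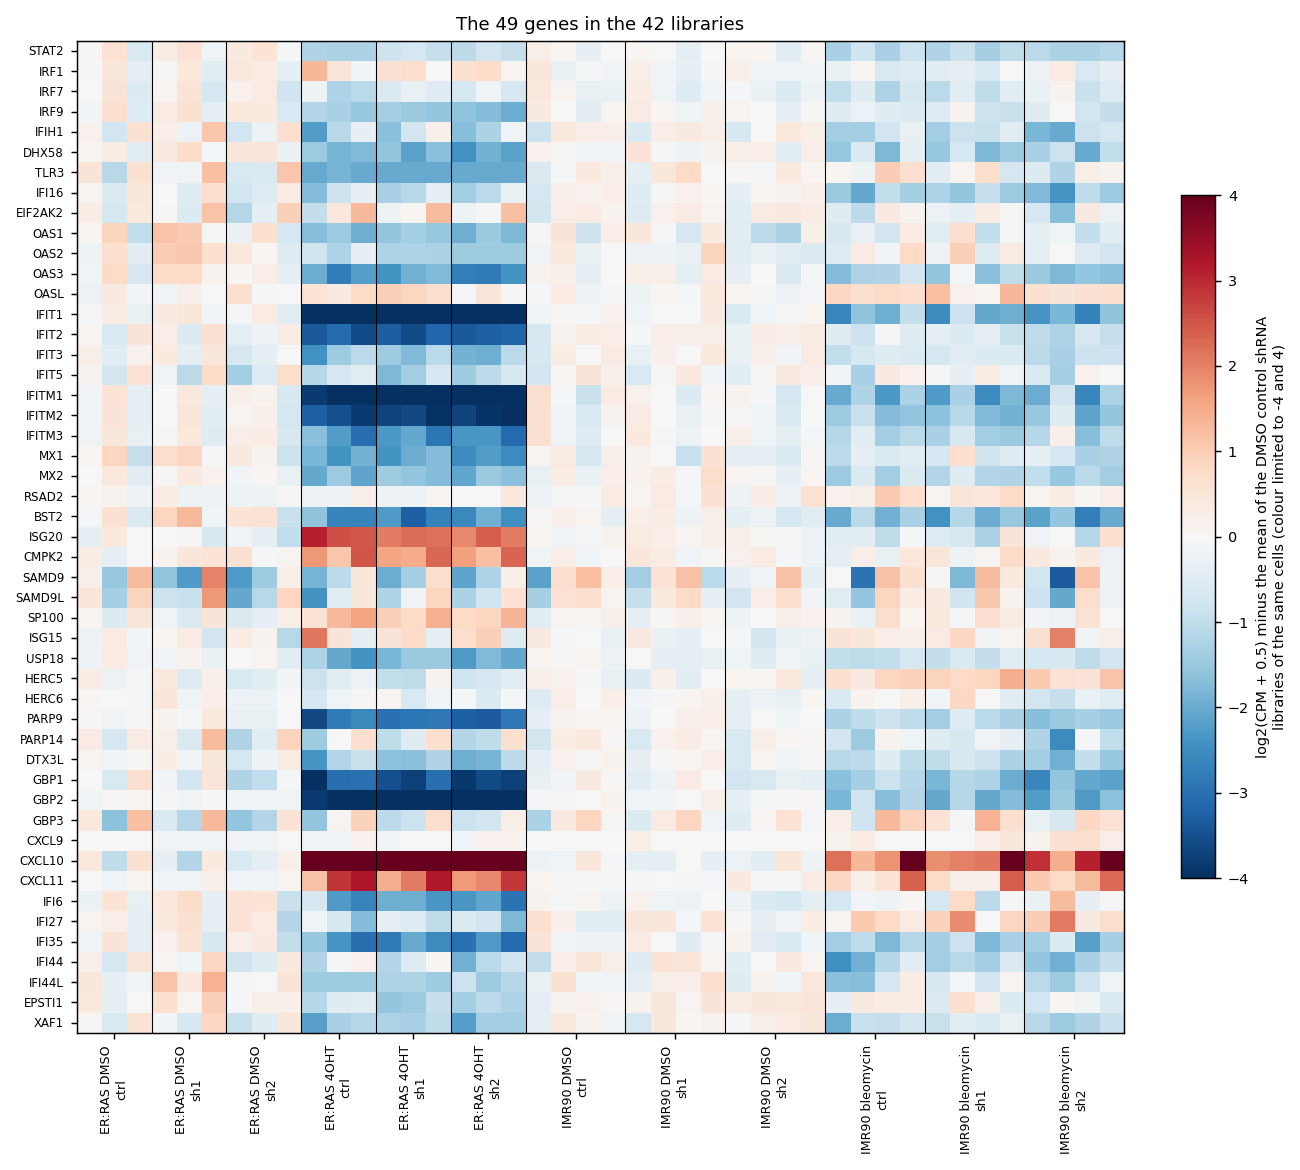
Each of the 49 members (rows) in each of the 42 libraries (columns, grouped by cells, treatment and shRNA), as log2(CPM + 0.5) minus the mean of the DMSO control shRNA libraries of the same cells, with the colour limited to −4 and 4. Blue rows such as IFIT1, IFITM1 and GBP2 run through all 9 OIS libraries, CXCL10 is red in all senescent groups, and SAMD9 changes colour from library to library.

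The response to 4OHT differed in size from the response to bleomycin in 17 of the 47 members tested in the fit of all libraries, which compared the log2 fold changes with the control shRNA. The OIS response was lower in 15 members and higher in 2, where 12.1% and 8.14% of 15299 genes differed in these directions. IFIT1 had a difference of −4.21 (SE 0.53, edgeR adjusted p = 3.88e-07), IFIT2 of −3.87 (SE 0.45, edgeR adjusted p = 8.37e-08) and GBP2 of −3.27 (SE 0.37, edgeR adjusted p = 5.48e-08). ISG20 (3.36, SE 0.52, edgeR adjusted p = 1.05e-05) and CMPK2 (2.91, SE 0.83, edgeR adjusted p = 0.0109) were the members with the higher response in OIS. TLR3, IFI44L and OAS1 were also called, with 1, 0 and 4 counts in the OIS libraries. The IFITM1 and IFITM2 responses differed by −2.35 and −2.12, and those of IFITM3 (−1.23, edgeR adjusted p = 0.0888), STAT2 (−0.26, edgeR adjusted p = 0.604) and CXCL10 (0.98, edgeR adjusted p = 0.713) were not called.

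Of the 45 members tested in both lines with the control shRNA, 17 fell in both models and CXCL10 and CXCL11 rose in both. The share of all genes called in both models is not given here. Another 7 (IRF9, TLR3, OAS1, IFIT2, MX1, IFI6 and IFI44L) fell in OIS and did not pass the test after bleomycin. IRF7, IFIH1, IFI16 and IFI44 fell after bleomycin and were not called in OIS. For IFI16 and IFI44 the test of the difference between responses was not passed (0.54, edgeR adjusted p = 0.509, and 1.28, edgeR adjusted p = 0.236). In 13 members neither response was called.

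The lines were also compared without senescence. With DMSO and the control shRNA, 0 of 47 members were called between ER:RAS and IMR90 cells by edgeR or by DESeq2, where 0.346% of all genes were called by edgeR. At an unadjusted p under 0.05, 4 members passed in edgeR, where 11.5% of genes did so. In DESeq2 6 members passed, and the share of all genes passing in DESeq2 is not given here. The members' log2 differences ran from −1.28 (SAMD9) to 1.74 (IFI27), which a missed threshold does not show to be 0. IFIT1 had a difference of −0.48 (SE 0.32, edgeR adjusted p = 0.511) and CXCL10 of 1.56 (SE 1.05, edgeR adjusted p = 0.510).

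In the fit without replicate numbers, no member was called for either COPB2 shRNA against the control. In ER:RAS cells with DMSO 0 of 46 members were called with each shRNA (background 0.00699% with each), and in OIS 0 of 46 (0.14% with COPB2 shRNA 1 and 0.224% with COPB2 shRNA 2). In IMR90 cells 0 of 46 were called with DMSO (0.00676% with each) and 0 of 46 after bleomycin (0.00676% and 0.0744%). DESeq2 called 0 members in all 8 comparisons. The share of genes called was low in all of these comparisons.

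Members passing an unadjusted p under 0.05 in edgeR are given with the share of all genes passing in parentheses. In ER:RAS cells with DMSO 2 of 46 members passed with COPB2 shRNA 1, both higher (0.811%), and 0 with COPB2 shRNA 2 (0.93%). In OIS 2 passed with COPB2 shRNA 1, both lower (3.23%), and 5 with COPB2 shRNA 2, 4 lower and 1 higher (4.48%). In IMR90 cells with DMSO 0 and 1 passed, the latter lower (1.12% with each). After bleomycin 1 passed with COPB2 shRNA 1, higher (1.41%), and 6 with COPB2 shRNA 2, all lower (6.74%). DESeq2 gave 1, 0, 2, 4, 0, 1, 1 and 8 members in the same order. The share of all genes passing in DESeq2 is not given here, so these counts cannot be set against a background. Over these 4 cell states 15, 31, 22 and 18 of the 46 fold changes were negative with COPB2 shRNA 1. With COPB2 shRNA 2, 35, 37, 33 and 32 were negative. Over all genes tested the median log2 fold change ran from −0.08 to 0.01 in these comparisons. The share of all genes with a negative fold change is not given here. Whether the members differ from genes at large in this count was not tested. The median half-width of the members' 95% intervals ran from 0.68 to 1.04 log2 units over these comparisons.

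IFITM1 had the smallest adjusted p of these comparisons. It was at 28.8, 25.5 and 21.7 CPM in OIS with the control shRNA, at 18.9, 19.1 and 18.7 CPM with COPB2 shRNA 1, and at 12.7, 11.9 and 12.2 CPM with COPB2 shRNA 2. The libraries of each COPB2 shRNA lay below those of the control shRNA, and the log2 fold change with COPB2 shRNA 2 was −1.06 (95% interval −1.57 to −0.54, edgeR adjusted p = 0.131). In ER:RAS cells with DMSO it was at 371, 601 and 313 CPM with the control shRNA and at 472, 455 and 265 CPM with COPB2 shRNA 2, which overlapped. GBP1 after bleomycin was at 11.2, 14.5, 20.02 and 16.6 CPM with the control shRNA and at 5.68, 12, 8.51 and 8.04 CPM with COPB2 shRNA 2 (−0.86, 95% interval −1.34 to −0.39, edgeR adjusted p = 0.330). With the replicate number added to the fit, both IFITM1 in OIS (edgeR adjusted p = 0.0346) and GBP1 after bleomycin (edgeR adjusted p = 0.0340) were called with COPB2 shRNA 2.

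**Figure D4:**
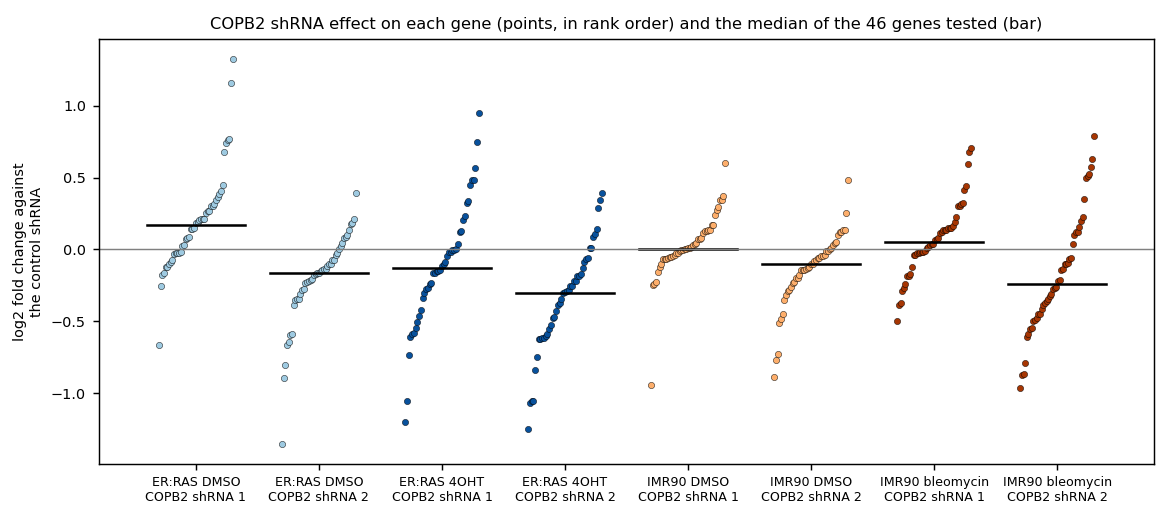
Log2 fold change of the members between each COPB2 shRNA and the control in the 4 cell states (points in rank order, without members with 3 or fewer counts in total in a group), with the median of the 46 members tested (bar). The medians lie between −0.30 and 0.17, and no point passed an edgeR adjusted p under 0.05 in the fit without replicate numbers.

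Whether the knockdown acted differently in senescent cells was tested as the difference between its effects with and without senescence. In edgeR 0 of 46 members were called for either shRNA in ER:RAS or in IMR90 cells (background 0% in all 4 tests). At an unadjusted p under 0.05, 2 and 3 members passed in ER:RAS cells with COPB2 shRNAs 1 and 2 (1.36% and 1.84%), and 1 and 3 in IMR90 cells (0.819% and 1.93%). DESeq2 called 0 members, with 2 and 2 in ER:RAS and 1 and 4 in IMR90 cells at an unadjusted p under 0.05. The share of all genes passing in DESeq2 is not given here. The knockdown contrasts of a cell state share the control libraries.

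Other genes of the pathway were described from lists written by name. Among all genes tested, 15.5% rose and 20.2% fell in OIS, and 15.4% rose and 15.8% fell after bleomycin. Of 21 interferon genes, 20 never exceeded 3 counts in a library, 14 of these had no count in any, and IFNB1 reached 2. IFNE, an epithelial interferon, reached 16 counts and did not pass the test in OIS (edgeR adjusted p = 0.153). Of the receptors and kinases, 8 were tested, and 1 rose and 1 fell in OIS, IFNGR2 (0.94) and IL10RB (−0.74), while IFNAR2 alone fell after bleomycin (−0.53). Among 11 genes of sensing and induction tested, TICAM1, the adaptor of TLR3, rose in OIS (1.21), and STING1 (−0.80) and IRF2 (−0.65) fell after bleomycin.

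SOCS1, an inhibitor of JAK kinases, fell in both models, by 2.37 in OIS and 2.44 after bleomycin. It is 1 of 7 negative regulators tested, of which 2 fell in OIS and 3 after bleomycin, SAMHD1 among them in both (−1.25 and −0.79). Of all genes, 20.2% and 15.8% fell in these comparisons. Of 31 further ISGs tested, 10 fell and none rose in OIS, where 20.2% of all genes fell and 15.5% rose, led by APOL1 (−4.77), SERPING1 (−4.42) and NMI (−2.30). After bleomycin 6 of 31 fell, where 15.8% of all genes fell, led by SERPING1 (−1.75), PLSCR1 (−1.46) and APOL6 (−1.23). LAMP3 and TRIM22 rose, where 15.4% of all genes rose. LAMP3 rose from no count with DMSO by at least 1.91 on the log2 scale and TRIM22 by 0.66. The list of 12 NF-kB cytokines went the other way, with 12 higher in OIS and 7 after bleomycin, of which 4 (CSF2, CXCL8, IL1A and IL1B) were called without bleomycin replicate 4. The medians of the further ISGs were −0.37 in OIS and −0.33 after bleomycin, closer to that of all genes than the members' medians.

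The spread between libraries of a group was larger for the members than for all genes tested, which were not matched to them for expression level. The median within-group SD of log2 CPM was 0.466 over the members and 0.369 over all genes tested, as medians over the 12 groups, and the members' value was the larger in 12 of 12. The most variable members were SAMD9, with a median SD of 1.60 over groups, SAMD9L (1.13), GBP3 (0.93), CXCL10 (0.80) and PARP14 (0.78). STAT2, USP18 and PARP9 had median SDs of 0.22, 0.21 and 0.20.

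SAMD9 had the widest spread. In IMR90 cells with DMSO and the control shRNA it was at 1.79, 15.9, 23 and 11.7 CPM, and after bleomycin at 9.67, 0.803, 22.3 and 15.2 CPM. Replicate 3 held the highest value in all 6 IMR90 groups, between 22 and 23.9 CPM. In ER:RAS cells replicate 3 was also the highest, from 4.68 to 17.4 CPM, against 0.424 to 4.79 CPM in replicates 1 and 2. GBP3 spread from 3.99 to 31.9 CPM in ER:RAS cells with DMSO and the control shRNA, and PARP14 from 9.66 to 42.6 CPM in OIS. SAMD9L was at 0.632, 3.83 and 7.73 CPM in that OIS group. These 4 genes have a transcript GC content below 50%, and none was called in either model with the control shRNA.

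ISG15, whose transcript is 64.2% GC, was high where SAMD9 was low in some groups. In OIS with the control shRNA it was highest in replicate 1 (272 CPM) and SAMD9 was lowest there (0.722 CPM), and after bleomycin with COPB2 shRNA 2 ISG15 was highest in replicate 2 (153 CPM) and SAMD9 lowest there (0.526 CPM). The members were therefore divided at 50% GC, into 19 rich and 28 poor ones, and set beside the upper and lower quartile of all other genes (56.9% and 42% GC). The gap between GC-rich and GC-poor genes in a library, as the median deviation from the group mean, ran from −1.377 to 1.318 log2 units over all other genes and from −1.17 to 1.11 over the members. Both gaps had the same sign in 40 of 42 libraries, and the same library was highest and the same lowest in 12 of 12 groups. The part of GC content in the spread was not tested.

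**Figure D5:**
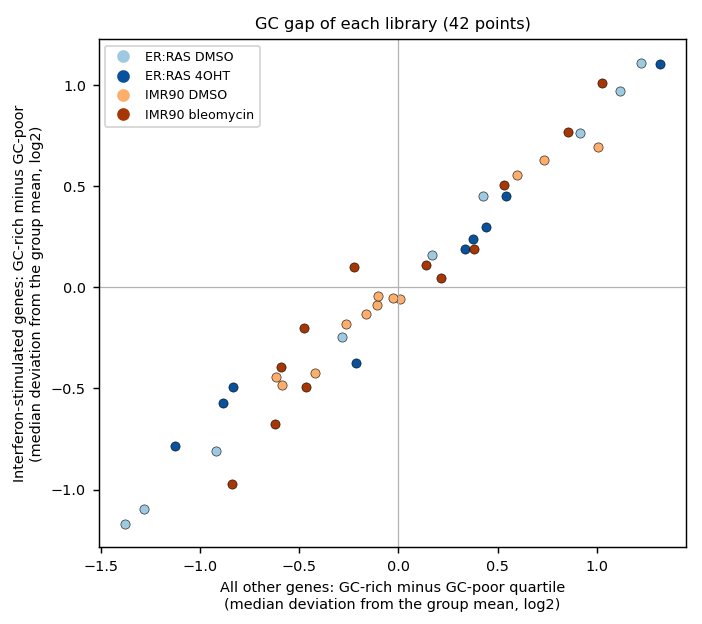
Gap between GC-rich and GC-poor genes in each of the 42 libraries, as the median log2 deviation from the group mean, for the members (y axis, 19 against 28 genes) and for the upper and lower GC quartiles of all other genes (x axis). The points rise together from −1.377 to 1.318 on the x axis.

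The GC classes were also set side by side in the group comparisons. In OIS the median log2 fold change was 0.08 in the GC-rich and −0.09 in the GC-poor quartile of other genes, and after bleomycin −0.05 and −0.02. Of the GC-rich members 12 of 18 fell in OIS, and of the GC-poor ones 12 of 28. After bleomycin 9 of 18 and 12 of 28 fell. Between the lines the classes stood further apart, at 0.27 and −0.38 over all genes and 0.34 and −0.48 over the members. With GC content and transcript length as offsets in the fit, an alternative added after the data were seen, 29 members fell and 6 rose in OIS, where 29.7% and 23.9% of all genes did so, and 25 fell and 4 rose after bleomycin, where 23.8% and 23% did so. In each knockdown comparison 0 members were called under these offsets.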

How the data were processed

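RNA was sequenced from 42 libraries in 12 groups after poly(A) selection. The values used are raw counts per gene symbol, deposited by the authors as one table. For these counts the study's methods name an alignment with Tophat to hg19, whereas the submitters' processing notes name DRAGEN, STAR 2.7.8a, DESeq2 1.32.0 and hg38. Which of these gave the counts is not settled. The study's methods name a directional library kit and a first-strand setting for Tophat, but whether counting used strand is not given in the sources used here. Groups came from the sample labels.

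Counts were fitted with edgeR 4.0.16 in R 4.3.3 (filterByExpr with a minimum of 10 counts, TMM, robust quasi-likelihood F test, Benjamini-Hochberg adjustment over all genes tested, threshold 0.05). Senescence and shRNA contrasts used all libraries of a cell line, 14297 genes in ER:RAS and 14783 in IMR90 cells, and contrasts between lines used all 42 libraries, 15299 genes. SDs are of log2 CPM with a prior count of 2. Reads carry no molecular identifiers, so the floor of 3 counts and the exact 95% intervals of count ratios cover counting error only. GC content and transcript length came from GENCODE on GRCh37 by symbol, with a value for 95.4% of symbols tested, and promoters came from RefSeq on GRCh38.p14. The fit was tested on simulated data.

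The members and lists were chosen with earlier results of these data known. Every member may be named. Values in each library are given for up to 6 called members with the largest change in each direction per senescence model at a mean of at least 1 CPM, up to 5 in each direction between models and between lines, any member called for a knockdown, the 5 with the largest within-group SD, and IFITM1 to IFITM3. Other members whose values are given in each library were chosen after their values were seen. Alternatives were DESeq2 1.42.0, DESeq2 size factors in edgeR, no filter, each library left out in turn, the replicate number as a block, a fit restricted to the libraries compared, a prior count of 0.5 and, added after seeing the data, GC and length offsets.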

Additional observations from a re-analysis of the deposited data

Results flagged for a closer look

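Responses to senescence that differed between OIS and bleomycin, by the test of the difference in the fit of all libraries with the control shRNA, were found for 17 members. The log2 difference, OIS response minus bleomycin response, was −4.21 for IFIT1, −3.87 for IFIT2, −2.35 for IFITM1 and −2.12 for IFITM2. It was −3.27 for GBP2, −2.28 for GBP1, −2.04 for PARP9 and −0.96 for USP18. It was −3.54 for OAS1, −1.36 for OAS3, −1.82 for MX1, −2.02 for MX2 and −1.87 for HERC5. For TLR3 (−6.39) and IFI44L (−6.01) the OIS libraries held 1 and 0 counts, so these fitted values depend on the prior count and are no bounds. The response was higher in OIS for ISG20 (3.36) and CMPK2 (2.91). The cell line and the trigger cannot be told apart in these differences.

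In 9 of 123 combinations of a member and a group of 4 libraries, 1 library lay apart from the other 3 by Dixon's test at its 95% critical value, which chance gives in about 1 in 20. After bleomycin with COPB2 shRNA 1, replicate 4 was high in CXCL10 (22.2 CPM) and HERC5 (3.01 CPM). In IMR90 cells with DMSO and the control shRNA, replicate 1 was low in IFIT2 (8.79 CPM), IFI44 (2.21 CPM) and IFI16 (119 CPM), and replicate 2 was high in IFI44L (3.12 CPM). With DMSO and COPB2 shRNA 1, replicate 1 was low in IFIT2 (13.7 CPM) and replicate 3 low in BST2 (3.42 CPM). With DMSO and COPB2 shRNA 2, replicate 3 was high in SAMD9 (22.6 CPM). For IFIT2, IFI44, IFI16, BST2 and SAMD9 these libraries had the highest or lowest gap of their group between GC-rich and GC-poor genes. For CXCL10, HERC5 and IFI44L they did not. The part of GC content in these outliers was not tested.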

How the results depend on the processing

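Counts of members called were recomputed in 134 combinations of a result and a setting other than leaving out a library, and 130 stayed within 1.5 times the reported count. The counts of 0 for the knockdown, for its differences and between the lines are among these results. At most 0.346% of all genes were called there, so the stability of these counts says little about the other results. With the replicate number as a block, 1 member was called with COPB2 shRNA 2 in OIS (IFITM1, −1.04, SE 0.21, edgeR adjusted p = 0.0346) and 1 after bleomycin (GBP1, −0.86, SE 0.16, edgeR adjusted p = 0.0340), against 0 without it. The numbers were not taken to pair the libraries, since not every same-numbered pair had deviations correlated above 0.1. A correlation above 0.1 was found in 35 of 45 such pairs in ER:RAS and 45 of 60 in IMR90 cells. However, 12 of 18 and 23 of 24 libraries correlated best with their own number. Median correlations were 0.55 with the same number and −0.41 with different numbers in ER:RAS cells, and 0.35 and −0.08 in IMR90 cells. With GC and length offsets, 28 members differed between the models, as did 34.8% of all genes. With only the libraries compared, 2 members rose after bleomycin, and the cause was not tested.

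Leaving out each library in turn gave 4 to 5 members higher and 23 to 25 lower in OIS, 2 to 4 higher and 18 to 22 lower after bleomycin, and 12 to 19 that differed between the models, with 12 without bleomycin control shRNA replicate 4. The 2 came without DMSO control shRNA replicate 3 or 4 or bleomycin control shRNA replicate 3 or 4. It gave 29 to 31 and 29 to 30 members called in OIS with COPB2 shRNAs 1 and 2, and 21 to 27 and 26 to 30 after bleomycin. It gave 0 to 0 members in each knockdown comparison, in each difference of knockdown effects and between the lines. No called member changed direction under these settings.

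In OIS IFI6 lost its call without replicate 2 of the DMSO (log2 fold change −1.42) or 4OHT (−1.47) group with the control shRNA, and XAF1 without DMSO replicate 3 (−1.88) or 4OHT replicate 1 (−1.89). After bleomycin IFIH1 lost it without DMSO replicate 2, 3 or 4 or bleomycin replicate 1, 2 or 3 (−1.10 to −0.93), DHX58 without bleomycin replicate 1 (−0.88) or 3 (−0.84), and IFITM3 without DMSO replicate 1 (−0.79) or bleomycin replicate 1 (−0.98) or 3 (−0.94). OASL lost it without DMSO replicate 1, 3 or 4 or bleomycin replicate 1 or 3 (1.89 to 2.24), HERC5 without DMSO replicate 3 or 4 or bleomycin replicate 3 or 4 (0.84 to 0.97), and CXCL11 without bleomycin replicate 4, where its fitted value depends on the prior count. With only the libraries compared, DTX3L in OIS (−1.43) and IFIH1 (−1.04), DHX58 (−1.03) and IFI44 (−1.67) after bleomycin were not called, in a fit with fewer libraries to estimate the spread.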
